A study of Mus musculus with 6 samples.

Results

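Glycans on the proteins and lipids of the alveolar surface are built by glycosyltransferases and modified by sulfotransferases of the Golgi apparatus. The genes described here are those of 10 enzyme families, taken as every gene of the deposited table whose symbol begins with Galnt, B3gnt, B3galt, B4galt, St3gal, St6gal, Fut, Mgat, Gcnt or Chst. Of 24224 genes in the table, 76 matched once pseudogene symbols ending in -ps were left out, and the 62 with 30 or more counts over the 6 libraries were kept. These 62 gene identifiers carry 61 symbols, since *St6galnac2* stands on 2 identifiers (ENSMUSG00000057286 and ENSMUSG00000110170) whose exons overlap. The members closest to the minimum were *Fut1* and *Chst3* with 32 counts each and *Chst2* with 34. Just below it were *B4galt6* with 29 counts and *Galnt6os*, an antisense transcript that matched by its symbol, with 21.

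The libraries came from alveolar type 2 (AT2) cells, which make surfactant and renew the alveolar epithelium. Wild-type mice, of a strain written C57/6J in the labels and C57BL/6J in the methods of the study, were left to age naturally, without any other treatment, and lung cells were sorted by flow cytometry as CD45- CD31- CD326+ MHCII+ at 3 months (3 m) or at 24 months (24 m) of age. Each age had 3 biological replicates, and every replicate pooled the lung cells of more than 1 mouse, so differences between single animals were averaged within a library. mRNA was sequenced from both ends of each fragment, and each library held 28827930 to 32394985 counts.

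The enzymes act in sequence. On asparagine, a precursor glycan is trimmed and then branched by the Mgat enzymes. On serine and threonine, the Galnt enzymes place the first sugar of mucin-type chains. B3gnt, B3galt, B4galt and Gcnt enzymes extend or branch both kinds of chain, the St3gal, St6gal and Fut enzymes cap them with sialic acid or fucose, and Chst enzymes add sulfate. In AT2 cells these chains are carried by surfactant proteins and by mucin-like proteins of the apical membrane.

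Among the 53 members that passed the low-count filter, 7 had libraries of both ages that did not overlap, 4 higher and 3 lower at 24 m, and the start regions of the 5 that could be read are shown first. The 100 bases before the RefSeq start site are given 5′ to 3′ on build GRCm38.p6, with capitals marking matches to any of 7 motifs, each searched on both strands. These were the TATA box with the letters TATAAA, the CCAAT box of that spelling, the GC box with the letters GGGCGG, the AP-1 site spelled TGANTCA with any middle base, the cyclic AMP response element or CRE spelled TGACGTCA in full, the STAT site spelled TTCNNNGAA with any middle bases, and the ETS site with the letters CCGGAAG. *B3gnt3* (chr8:71701801-71701900, minus strand), *B4galt3* (chr1:171270228-171270327, plus strand) and *St3gal4* (chr9:35116865-35116964, minus strand) were higher at 24 m. *Galnt3* (chr2:66124794-66124893, minus strand) and *St3gal5* (chr6:72097508-72097607, plus strand) were lower.
B3gnt3: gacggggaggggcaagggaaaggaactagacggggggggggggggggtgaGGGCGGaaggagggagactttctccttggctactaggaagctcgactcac
B4galt3: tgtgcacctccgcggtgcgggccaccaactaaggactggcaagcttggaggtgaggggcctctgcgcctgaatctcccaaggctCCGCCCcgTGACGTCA
St3gal4: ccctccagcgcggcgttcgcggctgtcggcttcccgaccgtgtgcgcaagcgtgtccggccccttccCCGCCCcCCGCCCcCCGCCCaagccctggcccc
Galnt3: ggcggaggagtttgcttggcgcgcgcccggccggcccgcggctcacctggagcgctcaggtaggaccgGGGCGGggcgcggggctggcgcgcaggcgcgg
St3gal5: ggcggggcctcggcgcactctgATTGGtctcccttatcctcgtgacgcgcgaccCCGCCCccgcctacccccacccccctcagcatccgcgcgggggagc

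All 5 windows held a GC box, and none held a TATA box, whether the gene was higher or lower at 24 m. *St3gal4* held 3 GC boxes, and its window was 80% G or C. *B4galt3* also held a CRE, which 1.15% of the 32851 windows of the RefSeq table held, and *St3gal5* a CCAAT box, which 18.9% held. A GC box was present in 24.7% of all windows and a TATA box in 5.56%. Over genes that passed the filter and had a window, 50.7% of 10629 symbols held a GC box in at least 1 start window, against 30 of 39 members (76.9%). *Fut8* has several start sites and was not shown, and *St3gal1* was not matched.

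Library 3 m replicate 2 stood apart from the other 5 over the whole table, and this touched most of the results below. It had counts for 13430 genes, against 16356 to 21836 in the others, and 693 of its genes were at 0 while every other library had 20 or more counts. Its mitochondrial share was 5.62%, against 2.29% to 3.604%. Of the 62 members, 18 were at 0 there, and 6 of these (*B3gnt2*, *B3gnt3*, *B3gnt8*, *Chst15*, *Galnt2* and *Gcnt2*) had 20 or more counts in each other library. Among the 53 tested members it was the highest library for 17 (32.1%) and the lowest for 18 (34.0%), where all tested genes gave 30.8% and 40.8%. Counts and medians over the members, and many of the fold changes, are therefore also given without it.

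The AT2 label was checked on 10 marker genes, which were present in every library and summed to 157300 to 239200 CPM (counts relative to the scaled total of the library). Of these 10, 3 were lower at 24 m without overlap (*Sftpb*, *Sftpa1* and *Slc34a2*) and 1 was higher (*Sftpd*). Lists of markers of other cells differed in how they moved with age. AT1 cell markers summed to 987 to 1912 CPM, and 1 of the 8 was higher at 24 m without overlap, as was 1 of 8 ciliated cell markers and none of the 5 tested for fibroblasts and mural cells. Airway secretory and goblet cell markers summed to 670, 750 and 278 CPM at 3 m and to 871, 1361 and 672 CPM at 24 m, and for 8 of the 10 tested every 24 m library lay above every 3 m library. Leukocyte markers summed to 267 to 326 CPM at 3 m and 261 to 426 CPM at 24 m, with overlap. Most of this sum was *Lcp1*, at 252 to 344 CPM over the libraries. Of the 8 tested, 5 were higher without overlap. So were 4 of 8 tested for B and plasma cells and 3 of 5 for macrophages and dendritic cells. Of 5 endothelial markers tested, 2 were higher and 1 lower without overlap. Over all genes tested, 9.74% were higher and 5.41% lower without overlap. *Ptprc*, which encodes the CD45 used in the gate, was at 0, 0 and 0.190 CPM at 3 m and at 3.44, 9.59 and 2.38 CPM at 24 m. Mesothelial markers were at 0 in the 3 m libraries and summed to 4.29, 24.0 and 3.99 CPM at 24 m. Nearly all of this sum was *Msln*, at 4.085, 23.8 and 3.78 CPM. *Upk3b*, *Wt1* and *Lrrn4* were each at 0.203 CPM or less, so the sum describes a single gene. Library 24 m replicate 2 was the highest in the airway, leukocyte and mesothelial sums. In bulk RNA, fewer cells of a type and less RNA per cell cannot be told apart.

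To compare genes with each other, the FPKM of the deposited table was used, which divides the fragments of a gene by its length and the library total. Levels ran from 0.0263 to 39.5 mean FPKM. 12 members were at 10 or more, 25 between 1 and 10, and 25 below 1. *St3gal1*, which caps the core 1 disaccharide of mucin-type chains with sialic acid, was the highest at 39.5 ± 10.7 FPKM (SD, n = 6 libraries). It was followed by *Mgat4b* (27.7 ± 8.22), *Mgat2* (26.8 ± 6.96), *St3gal5* (24.7 ± 4.13), *B4galt1* (21.6 ± 6.05) and *St6galnac4* (20.4 ± 2.69), which did not differ from their neighbours in this order beyond their spread. The 62 members together summed to 366 to 385 FPKM in every library, and the 10 highest members made up 57.4% to 62.4% of that sum.

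**Figure D1:**
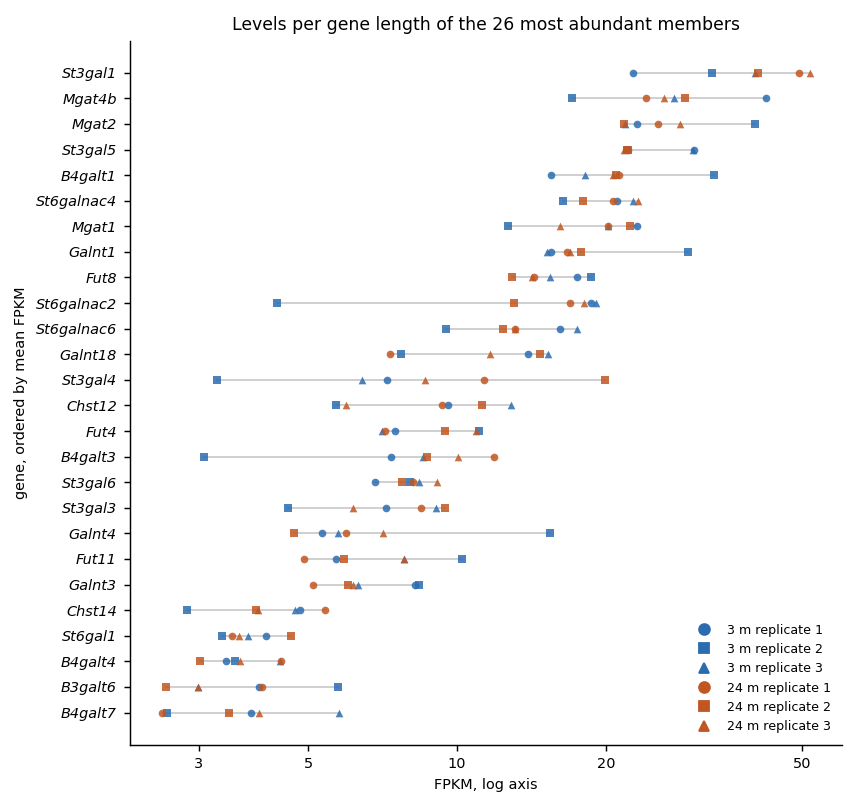
FPKM of the 26 members with the highest mean, on a log axis, with 1 point per library (blue 3 m, orange 24 m, shape by replicate) and a grey line over the range. *St3gal1* lies furthest right at 22.7 to 51.8 FPKM, and 3 m replicate 2 (blue square) marks an end of many ranges, as for *St6galnac2* at 4.33 FPKM.

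In FPKM averaged over all 6 libraries, St3gal had the highest family sum (89.9), followed by Mgat (77.6), the St6gal and St6galnac enzymes (56.0) and Galnt (54.7). This order held for the means at 24 m. At 3 m St3gal and Mgat were level in their means, with Mgat the higher in replicates 1 and 2. The 3 m mean of Galnt lay above that of St6gal only through replicate 2, at 76.8 against 37.2 FPKM. In 3 m replicates 1 and 3 the St6gal sum was the higher, at 61.4 and 65.9 against 51.2 and 50.2 FPKM. St3gal members summed to 74.5, 71.8 and 94.7 FPKM at 3 m and to 99.9, 100.6 and 98.2 FPKM at 24 m. All 24 m libraries lay above all 3 m libraries, with means of 80.3 ± 12.5 and 99.5 ± 1.25 (SD, n = 3). The same held with FPKM put on the TMM-scaled totals used for CPM, at 77.7 to 90.2 and 94.6 to 98.7. The other 9 families had ages that overlapped on both scales, and without 3 m replicate 2 the B3gnt and B4galt sums in FPKM were also higher in every 24 m library. Mgat members summed to 79.5 ± 10.1 FPKM at 3 m and 75.8 ± 1.86 at 24 m. Galnt members summed to 59.4 ± 15.1 and 49.98 ± 3.29, and B4galt members to 38.6 ± 5.40 and 40.9 ± 1.07. The St6gal and St6galnac enzymes summed to 54.9 ± 15.4 and 57.2 ± 6.47. Gcnt members, which make the branched core 2 and I structures, summed to only 0.267 ± 0.332 and 0.461 ± 0.515. With 3 libraries against 3, the smallest p an exact permutation test allows is 0.1, so these sums are given as a description.

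**Figure D2:**
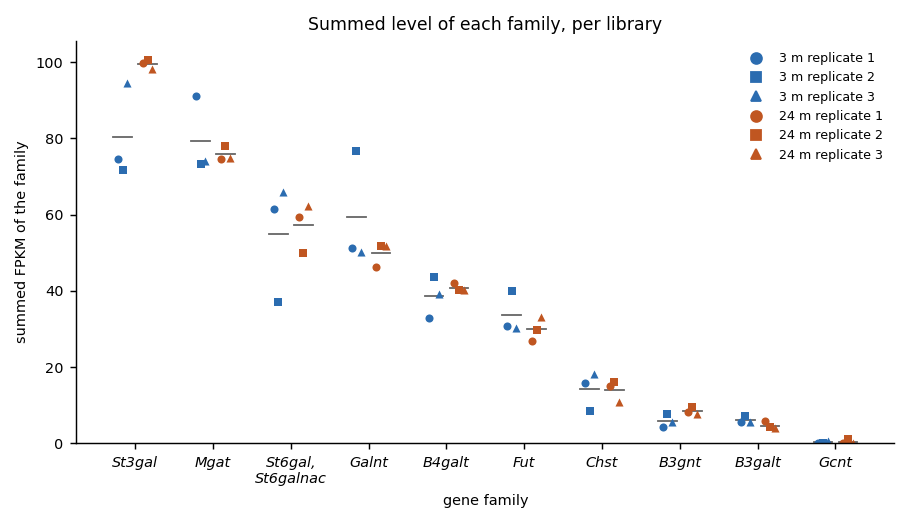
Summed FPKM of each enzyme family (y axis) by family, with 1 point per library, blue for 3 m and orange for 24 m, and a grey line at the mean of 3 libraries. The St3gal sums at 24 m, 98.2 to 100.6, lie above those at 3 m, 71.8 to 94.7, and the ages overlap in every other family.

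The question of the comparison was which genes differ in AT2 cells between young and old lungs. By edgeR's quasi-likelihood test over 14899 genes, with Benjamini-Hochberg adjustment, no member was called at 24 m against 3 m, a call being an adjusted p under 0.05 with a log2 fold change above 1 in size. No gene of the table was called either (0%). The smallest adjusted p of a member was 0.815, for *St3gal4*. At an unadjusted p under 0.05 stood 2 members, *St3gal4* and *B3gnt3*, both higher at 24 m, and none was lower, where 3.56% of all genes were higher and 2.3% lower. limma-voom called no member and no gene, with 3 members at an unadjusted p under 0.05, all higher (5.07% of all genes). DESeq2 called no member, with 5 members at an unadjusted p under 0.05, all higher (4.8% of all genes), while it called 1.63% of genes higher and 0.16% lower.

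The median log2 fold change of the 53 members was -0.034, against 0.052 for all genes tested, with 24 members above 0 and 29 below. For 17 members the 95% interval lay within 1 log2 unit of 0 on either side, which limits any change to less than that size. For the other 36 members these libraries did not limit a change to that size. Without 3 m replicate 2, the median was 0.10 over 60 members (0.032 for all genes), and 27 intervals lay within 1 log2 unit.

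**Figure D3:**
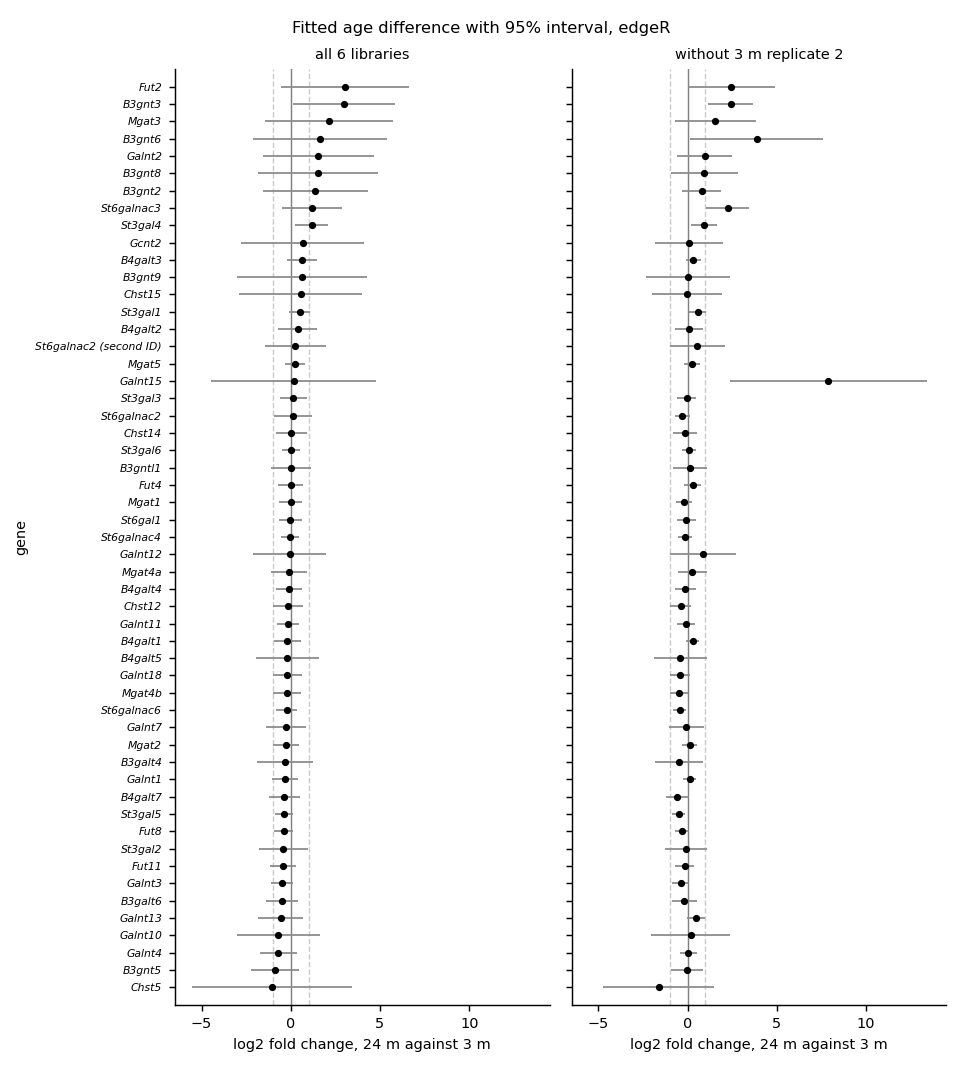
Fitted log2 fold change, 24 m against 3 m, of the 53 tested members (points) with 95% intervals (grey lines), from edgeR on all 6 libraries and on the 5 without 3 m replicate 2. Dashed lines mark 1 log2 unit. Intervals are widest for genes of few counts, and *B3gnt3*, *St6galnac3* and *Galnt15* lie above 1 log2 unit with their whole interval only in the fit on 5 libraries, which for *Galnt15* lacks the 3 m library that held its counts.

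The libraries of the 2 ages did not overlap for 4 members that were higher at 24 m, *B3gnt3*, *B4galt3*, *St3gal1* and *St3gal4* (7.55% of those tested, against 9.74% of all genes), and for 3 that were lower, *Fut8*, *Galnt3* and *St3gal5* (5.66%, against 5.41%). These shares were near those of the whole table. Without 3 m replicate 2, 13 of 60 members were higher without overlap (21.7%, against 14.9% of all genes) and 7 were lower (11.7%, against 11.4%). Of the 13, *B3gnt7*, *Chst11* and *Galnt6* had 7 counts or fewer at 3 m and reached the count minimum only through the 24 m libraries. *Galnt15* had no count in the 3 m libraries that remained. The share of members that were higher therefore came partly from how members were chosen. In the fit without 3 m replicate 2, 9 members were higher and 2 lower at an unadjusted p under 0.05 (7.42% and 2.94% of all genes). *B3gnt7*, *Chst11* and *Galnt15* were among the 9. edgeR called none there, while it called 0.506% of genes higher and 0.0185% lower. DESeq2 without that library called 3 members higher, *B3gnt3*, *St6galnac3* and *Galnt15*, and none lower (2.66% and 0.108% of genes). edgeR with neither that library nor the low-count filter called 2, *B3gnt3* and *St6galnac3*, both higher, and none lower (1.58% and 0.116%).

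**Figure D4:**
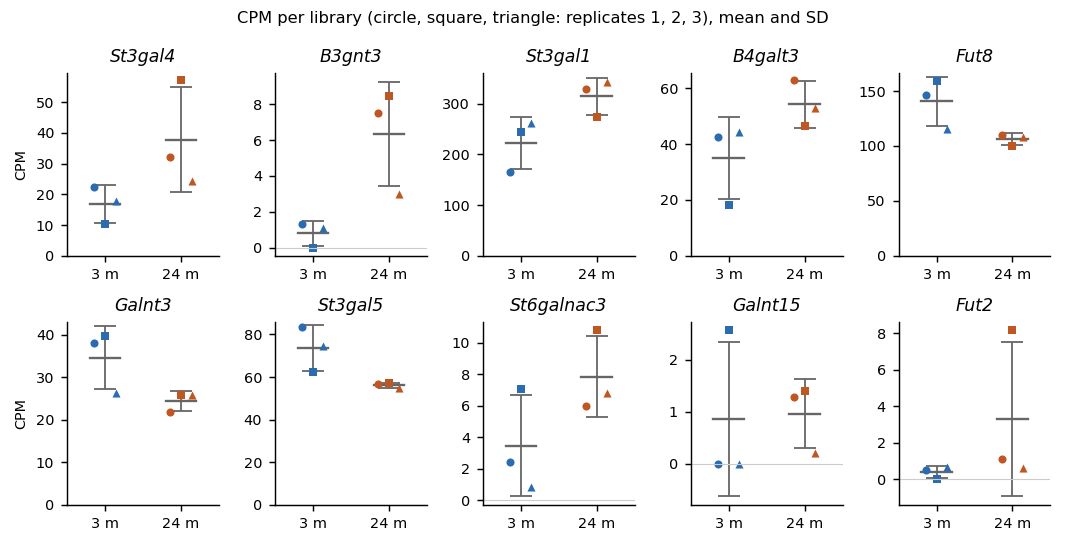
CPM per library for the 7 members whose ages did not overlap and for *St6galnac3*, *Galnt15* and *Fut2*, with the mean and SD of 3 libraries per age. *St3gal4* was at 10.3 to 22.4 CPM at 3 m and at 24.2 to 57.1 CPM at 24 m, and *Galnt15* had its highest value, 2.56 CPM, in 3 m replicate 2.

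The sialyltransferases held the largest levels and 3 of the 7 members whose ages did not overlap. *St3gal4*, which sialylates lactosamine and contributes to sialyl Lewis x, was at 22.4, 10.3 and 17.9 CPM at 3 m and at 32.2, 57.1 and 24.2 CPM at 24 m. Every 24 m library was higher than every 3 m library, and 24 m replicate 2 was the highest. That library also had the most airway secretory marker, leukocyte marker and *Msln* RNA. The part of such cells in the *St3gal4* value was not tested. In the GENCODE vM21 annotation 14.1% of the exons of *St3gal4* overlap *4930581F22Rik* on the opposite strand. The log2 fold change was 1.17 (SE 0.41, edgeR adjusted p = 0.815). It was 0.75 without 24 m replicate 2, and 0.91 (SE 0.32, adjusted p = 0.354) without 3 m replicate 2. With neither that library nor the low-count filter it was 0.92 with an edgeR adjusted p of 0.00509, below the fold that a call needs, and over all alternatives the adjusted p ran from 0.00509 to 0.9997. *St3gal1* was at 164.9, 243.4 and 261 CPM at 3 m and at 328, 274 and 342 CPM at 24 m. Its lowest 24 m library stood just above its highest 3 m library, and the log2 fold change was 0.50 (SE 0.26, adjusted p = 0.828), or 0.56 (SE 0.22) without 3 m replicate 2.

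*St3gal5*, the synthase of the ganglioside GM3, was lower at 24 m, with 83.7, 62.6 and 74.7 CPM at 3 m and 56.6, 57.0 and 54.9 CPM at 24 m. The 24 m libraries lay close together and below all 3 m libraries in CPM, although in FPKM, which has no scaling for composition, 3 m replicate 2 (22.1) lay among them (21.8 to 22.2). The log2 fold change was -0.39 (SE 0.22, adjusted p = 0.828), or -0.49 (SE 0.16) without 3 m replicate 2. *St3gal6*, which also acts on lactosamine, was at 44.6, 53.7 and 49.2 CPM at 3 m and at 48.9, 46.9 and 54.1 CPM at 24 m. Its ages overlapped throughout, and the 95% interval of its log2 fold change was -0.48 to 0.53. *St3gal3* was at 21.1, 13.6 and 23.9 CPM at 3 m and at 22.7, 25.6 and 16.45 CPM at 24 m, with overlap. *St3gal2*, which sialylates gangliosides and core 1 chains, ranged from 2.51 to 5.66 CPM over the 6 libraries, also with overlap.

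Among the enzymes that attach sialic acid in the other linkage, *St6galnac4* was the most abundant in FPKM. It makes disialylated core 1 chains, and was at 145.0, 114.8 and 140.2 CPM at 3 m and at 131, 114.5 and 145.3 CPM at 24 m. The ages overlapped, and the 95% interval of the log2 fold change, -0.55 to 0.48, lay within 1 log2 unit. *St6galnac6*, its direct neighbour among protein-coding genes of the RefSeq table for GRCm38.p6, is a ganglioside sialyltransferase. It was at 82.4, 49.5 and 80.1 CPM at 3 m and at 61.3, 58.4 and 60.6 CPM at 24 m. Only 3 m replicate 2 made the ages overlap, and without it the log2 fold change was -0.43 (SE 0.16, edgeR adjusted p = 0.380).

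*St6galnac2* under its first identifier was at 115, 27.1 and 105.4 CPM at 3 m and at 95.5, 74.2 and 100.6 CPM at 24 m. It was lowest in 3 m replicate 2, and its log2 fold change turned from 0.13 (SE 0.48) to -0.29 (SE 0.19) without that library. The second identifier, at 1.17 to 7.12 CPM, shares exons with the first on the same strand, so reads may have been split between them. *St6gal1*, the main enzyme for this linkage on N-glycans, ranged from 16.8 to 22.3 CPM, with a 95% interval within 1 log2 unit. *St6galnac3*, a ganglioside sialyltransferase, was at 2.44, 7.05 and 0.886 CPM at 3 m and at 5.98, 10.8 and 6.81 CPM at 24 m. The ages overlapped only through 3 m replicate 2. With all libraries the log2 fold change was 1.18 (SE 0.74, edgeR adjusted p = 0.830), and without 3 m replicate 2 it was 2.24 (SE 0.54, adjusted p = 0.121 by edgeR and 0.00494 by DESeq2).

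The Mgat enzymes, which start and branch complex N-glycans, held 4 members at 20 CPM or more, and none had ages that did not overlap. *Mgat1*, which begins the conversion to hybrid and complex chains, was at 116, 65.1 and 91.1 CPM at 3 m and at 93.0, 103.7 and 73.8 CPM at 24 m. *Mgat2*, the next enzyme, was at 64.1, 113.2 and 54.4 CPM at 3 m and at 64.9, 55.7 and 71.3 CPM at 24 m. In 3 m replicate 2 *Mgat1* was at its lowest and *Mgat2* at its highest, and the ages overlapped for both. Their log2 fold changes were -0.010 (SE 0.28) and -0.27 (SE 0.31), with 95% intervals within 1 log2 unit.

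*Mgat4b*, which adds a further antenna, was at 121.6, 50.3 and 71.2 CPM at 3 m and at 63.7, 77.0 and 68.7 CPM at 24 m, with both extremes at 3 m. *Mgat5*, whose branch is extended with poly-lactosamine, was at 24.3, 29.4 and 34.3 CPM at 3 m and at 36.7, 32.2 and 34.9 CPM at 24 m. Its 24 m libraries were level, and 3 m replicate 3 lay among them, with a log2 fold change of 0.24 (95% interval -0.33 to 0.81). *Mgat4a*, the other enzyme of that antenna, ranged from 5.94 to 11.7 CPM. *Mgat3*, which adds the bisecting residue, was at 0.138, 0 and 1.84 CPM at 3 m and at 2.94, 4.79 and 1.07 CPM at 24 m.

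Galactosyltransferases of the B4galt family, which make lactosamine, were led by *B4galt1*. It was at 69.5, 151.6 and 73.2 CPM at 3 m and at 87.7, 87.1 and 84.3 CPM at 24 m. The 24 m libraries were level, above both 3 m replicates 1 and 3, and 3 m replicate 2 was the highest of all. Its log2 fold change was -0.18 (SE 0.33) with all libraries and 0.28 (SE 0.16, edgeR adjusted p = 0.635) without 3 m replicate 2. *B4galt3*, of the same activity, was at 42.6, 18.2 and 44.5 CPM at 3 m and at 63.1, 46.6 and 53.0 CPM at 24 m. All 24 m libraries were higher, and the log2 fold change was 0.63 (SE 0.36, adjusted p = 0.828), or 0.32 (SE 0.19) without 3 m replicate 2. In the GENCODE vM21 annotation 14.5% of the exons of *B4galt3* overlap *Ppox* on the opposite strand, and the strand setting of the counts is not given in the sources used here.

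The other B4galt members were lower. *B4galt4* ranged from 9.52 to 13.4 CPM, and *B4galt2*, of which 28.2% overlaps *Ccdc24* on the same strand, from 4.63 to 15.5 CPM. *B4galt5*, which makes lactosylceramide, ranged from 1.05 to 3.86 CPM. *B4galt7*, which adds the first galactose of the linker that joins glycosaminoglycans to proteins, was at 11.7, 8.12 and 15.95 CPM at 3 m and at 7.12, 9.82 and 11.1 CPM at 24 m. Both 3 m replicates 1 and 3 were above all 24 m libraries, and the log2 fold change was -0.35 (SE 0.39, adjusted p = 0.880), or -0.56 (SE 0.30) without 3 m replicate 2. *B3galt6*, which adds the second galactose of that linker, was at 13.4, 19.8 and 9.08 CPM at 3 m and at 12.5, 8.05 and 9.19 CPM at 24 m, with overlap. *B3galt4*, a synthase of the ganglioside GM1, ranged from 1.43 to 3.86 CPM. *B3galt2*, which was not tested, was at 2.17 CPM in 3 m replicate 2 and at 0.134 CPM or less elsewhere.

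The Galnt enzymes, which start mucin-type chains, had 3 m replicate 2 as an extreme for most members. This library was the highest of 6 for 8 of the 11 members tested and the lowest for 1. *Galnt1*, the most abundant per length, was at 90.7, 175.5 and 79.8 CPM at 3 m and at 89.5, 96.5 and 89.8 CPM at 24 m. Apart from 3 m replicate 2 all its values lay within a narrow range, and the log2 fold change was -0.33 (SE 0.32), or 0.11 (95% interval -0.25 to 0.48) without that library. *Galnt4*, which prefers peptides that already carry sugar, was at 28.8, 84.8 and 27.8 CPM at 3 m and at 29.5, 23.4 and 34.7 CPM at 24 m. *Galnt13*, known for mucin-type chains of neurons, was at 16.7, 66.9 and 15.8 CPM at 3 m and at 24.1, 19.1 and 24.3 CPM at 24 m. In both genes 3 m replicate 2 was far above every other library. Without it *Galnt13* was higher at 24 m with no overlap, with a log2 fold change of 0.47 (SE 0.23, adjusted p = 0.516), where the fit on all libraries gave -0.56 (SE 0.55).

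*Galnt3*, known for glycosylating the hormone FGF23, was the only Galnt member with ages that did not overlap in all 6 libraries. It was at 38.1, 39.6 and 26.2 CPM at 3 m and at 21.8, 25.8 and 25.9 CPM at 24 m. The third 3 m library stood barely above the 24 m libraries, and the log2 fold change was -0.50 (SE 0.27, adjusted p = 0.828), or -0.39 (SE 0.22) without 3 m replicate 2. *Galnt18* was at 38.1, 21.5 and 37.4 CPM at 3 m and at 18.3, 37.1 and 29.0 CPM at 24 m, with overlap. *Galnt11* was the steadiest, at 24.5, 25.96 and 21.2 CPM at 3 m and at 22.2, 18.4 and 24.0 CPM at 24 m, and its 95% interval, -0.75 to 0.45, was the only one of the tested Galnt members to lie within 1 log2 unit.

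**Figure D5:**
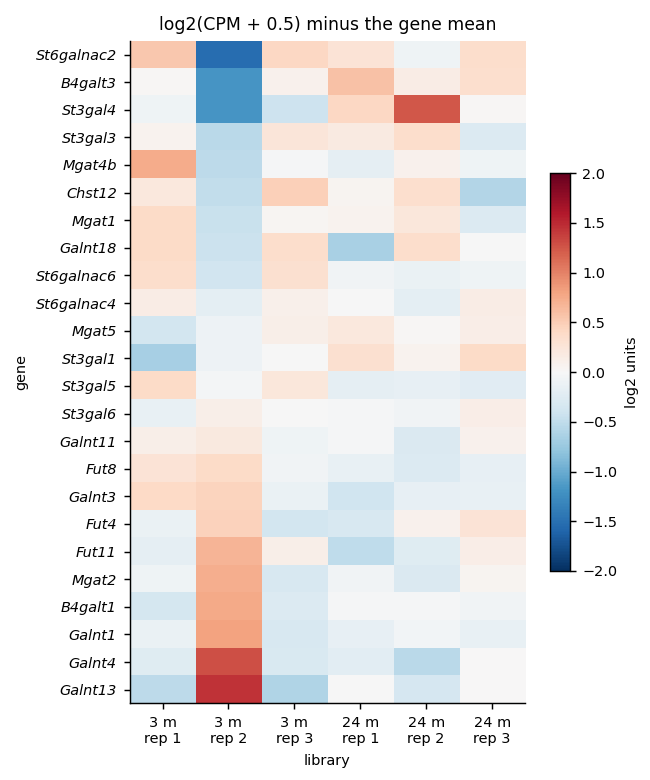
Deviation of log2(CPM + 0.5) from the mean of each gene for the 24 members with a mean of 20 CPM or more, by library, ordered by the value in 3 m replicate 2 (red above, blue below the mean). The column of 3 m replicate 2 holds the strongest colours at both ends, from *St6galnac2* to *Galnt13*, and the 3 libraries of 24 m are paler.

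Over the 24 members with a mean of 20 CPM or more, the median coefficient of variation was 30.02% between the 3 m libraries, 12.7% between the 24 m libraries and 9.74% between 3 m replicates 1 and 3. All genes at this level gave 32.4% at 3 m and 10.7% at 24 m. The remaining Galnt members were low. *Galnt7* ranged from 4.40 to 11.3 CPM, and *Galnt2*, *Galnt10* and *Galnt12* each were at 4.32 CPM or less. *Galnt2*, which was at 0 in 3 m replicate 2, shares 90.0% of its exons with the readthrough gene *Gm20388*, so its counts depend on how shared reads were treated. *Galnt15* was at 0, 2.56 and 0 CPM at 3 m and at 1.28, 1.41 and 0.208 CPM at 24 m. The adjusted p of 0.0192 by DESeq2 without 3 m replicate 2 rested on leaving out the 3 m library that had counts. *Galnt6*, not tested, was at 0, 0 and 0.222 CPM at 3 m and at 1.08, 0.737 and 0.268 CPM at 24 m.

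The B3gnt and Gcnt enzymes, which extend or branch the chains, were at low levels, and of those tested only *B3gnt3* had ages that did not overlap in all 6 libraries. It extends the core 1 chain with N-acetylglucosamine, and was at 1.31, 0 and 1.08 CPM at 3 m and at 7.53, 8.48 and 3.01 CPM at 24 m. Every 24 m library was higher than every 3 m library. With all libraries the log2 fold change was 2.99 (SE 1.25, edgeR adjusted p = 0.828), and without 3 m replicate 2 it was 2.41 (SE 0.58, adjusted p = 0.123 by edgeR and 0.00522 by DESeq2). Its highest value was in 24 m replicate 2, the library with the most airway secretory marker, leukocyte marker and *Msln* RNA, and 24 m replicate 1, with less of it, was close behind. The part of these cells in the value was not tested.

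*B3gnt5*, which makes the lactotriaosyl core of glycolipids, was the most abundant B3gnt member per length. It was at 7.85, 33.3 and 11.9 CPM at 3 m and at 5.47, 8.95 and 14.3 CPM at 24 m, so that only 3 m replicate 2 stood out. *B3gnt2*, the main enzyme of poly-lactosamine, was at 1.89, 0 and 5.03 CPM at 3 m and at 6.48, 6.74 and 4.85 CPM at 24 m, and 58.6% of its exons overlap *Gm28048* on the same strand. *B3gnt6*, the core 3 synthase of mucin-type chains, was at 0, 1.03 and 0.158 CPM at 3 m and at 1.72, 1.44 and 0.536 CPM at 24 m. Its ages overlapped only through 3 m replicate 2. *B3gnt8* ranged from 0 to 3.82 CPM, *B3gnt9* from 0 to 1.68 CPM and *B3gntl1* from 3.45 to 5.62 CPM, all with overlap.

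Members with no count at 3 m were too low for the filter. *B3gnt7*, which builds keratan sulfate, was at 1.35, 0.536 and 0.0298 CPM at 24 m, at least 18.9-fold above a floor of 3 counts in the 3 m libraries together. *Gcnt1*, which makes the core 2 branch, was at 0, 1.17 and 0.179 CPM at 24 m, at least 13.3-fold above that floor. A level above that floor follows from the count minimum, which both genes reached only through the 24 m libraries. Both bounds rested mainly on a single library, and without it they were 8.37 and 2.64. *Gcnt2*, which makes the I branch, was at 1.20, 0 and 2.98 CPM at 3 m and at 0.777, 4.59 and 1.25 CPM at 24 m, with overlap. *Gcnt4* had counts in only 2 libraries, at 0.949 CPM in 3 m replicate 3 and 0.905 CPM in 24 m replicate 2.

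Among fucosyltransferases, *Fut8* was the most abundant per length. It adds the core fucose of N-glycans, and was at 146.8, 159.3 and 115.8 CPM at 3 m and at 110.1, 100.1 and 108.2 CPM at 24 m. All 24 m libraries were lower, the nearest by a small margin, and the log2 fold change was -0.41 (SE 0.23, edgeR adjusted p = 0.828), or -0.30 (SE 0.17) without 3 m replicate 2. *Fut4*, which makes Lewis x structures, was at 32.4, 48.8 and 27.3 CPM at 3 m and at 28.3, 37.8 and 42.8 CPM at 24 m, with a log2 fold change of 0.0056 (95% interval -0.69 to 0.70). *Fut11* was at 25.7, 47.1 and 31.7 CPM at 3 m and at 20.3, 24.7 and 32.0 CPM at 24 m. In both, 3 m replicate 2 was the highest and the ages overlapped.

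*Fut2*, which makes the H antigen of secretions, was at 0.516, 0 and 0.665 CPM at 3 m and at 1.08, 8.15 and 0.595 CPM at 24 m. The log2 fold change of 3.04 (SE 1.57, adjusted p = 0.828) rested on 24 m replicate 2, and it was 1.08 without that library. *Muc5b*, the gel-forming airway mucin, was also highest there, at 21.1, 74.3 and 21.7 CPM at 24 m against 0.619, 3.74 and 0.222 CPM at 3 m. The part of airway secretory cells in the *Fut2* value was not tested. *Fut1*, the other H antigen enzyme, had 2 counts at 3 m and 30 at 24 m, a ratio of 14.3 (95% counting interval 3.63 to 124), with none in 24 m replicate 2. The interval covers counting error only, not the spread between libraries, and DESeq2 gave an unadjusted p of 0.1998 (adjusted p = 0.708). *Fut1* reached the count minimum only through its 24 m libraries.

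Sulfotransferases were led per length by *Chst12*, which sulfates chondroitin. It was at 24.1, 14.5 and 28.9 CPM at 3 m and at 21.4, 26.1 and 13.6 CPM at 24 m. The ages overlapped, and the 95% interval of the log2 fold change was -0.99 to 0.69. *Chst14*, the dermatan sulfotransferase, ranged from 6.41 to 11.0 CPM, again with an interval within 1 log2 unit. *Chst15*, which adds a further sulfate to chondroitin, ranged from 0 to 1.76 CPM, and *Chst5*, which sulfates N-acetylglucosamine, from 0 to 3.03 CPM.

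*Chst11*, another chondroitin sulfotransferase, without a count at 3 m, was at 0.439, 1.54 and 0.0892 CPM at 24 m, at least 20.4-fold above the 3 m floor. *Chst2*, which sulfates N-acetylglucosamine, was at 0.675, 0.469 and 0 CPM at 24 m, at least 11.3-fold above it. *Chst3*, which sulfates chondroitin at a different position, was at 0, 0.369 and 0.625 CPM at 24 m, at least 9.80-fold above it. Each of these bounds counts the floor over the whole age, and the last pair of genes was at 0 in 1 of the 24 m libraries. A level above the floor follows from the count minimum, which these genes reached only through the 24 m libraries. Without the highest 24 m library of each gene, which for *Chst11* is replicate 2, the bounds were 7.81, 6.94 and 5.45.

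Another 7 gene lists of the same pathways were read from the same fit. edgeR called no gene of these lists. Of 29 genes that build, transfer and trim the N-glycan precursor, all were tested, 7 had a log2 fold change above 0, and the median was -0.43, or -0.12 without 3 m replicate 2. The ages did not overlap for 6 genes that were lower and 2 that were higher, where 5.41% and 9.74% of all genes did. Without 3 m replicate 2 these counts were 7 and 3, where 11.4% and 14.9% of all genes did. *Ostc*, a subunit of the oligosaccharyltransferase, was at 76.6, 114.3 and 55.8 CPM at 3 m and at 41.0, 42.4 and 49.4 CPM at 24 m, with a log2 fold change of -0.89 (SE 0.30, adjusted p = 0.776), or -0.58 without 3 m replicate 2. *Rpn2* of the same complex (log2 fold change -0.53, SE 0.24) and *Alg14* (-0.59, SE 0.30), an early enzyme of the precursor, were also lower in every 24 m library, at -0.38 and -0.34 without 3 m replicate 2. *Alg2*, a mannosyltransferase of the precursor, overlapped, and its log2 fold change of -0.84 (SE 0.46) was -0.073 without 3 m replicate 2, which held 147.4 CPM against 39.2 to 54.8 CPM in the others.

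Of 14 Golgi transporters of nucleotide sugars and sulfate donors, 13 were tested, 2 had a log2 fold change above 0, and 4 were lower without overlap against 1 higher, with 5.41% and 9.74% over all genes. Without 3 m replicate 2 these counts were again 4 and 1, with 11.4% and 14.9% over all genes. The median was -0.35, and -0.095 without 3 m replicate 2. *Slc35a1*, the CMP-sialic acid transporter that supplies all sialyltransferases, was at 35.5, 106.7 and 29.5 CPM at 3 m and at 29.3, 16.1 and 26.6 CPM at 24 m. The ages were separated by a small margin, and most of the log2 fold change of -1.25 (SE 0.51, adjusted p = 0.828) came with 3 m replicate 2, since it was -0.43 without it. *Slc35a3*, a UDP-N-acetylglucosamine transporter (log2 fold change -0.94, SE 0.40), and *Slc35c2* (-0.48, SE 0.23) were likewise lower in every 24 m library. Without 3 m replicate 2, where *Slc35a3* was at 122.6 CPM, they were -0.34 and -0.43.

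Of 27 tested genes of nucleotide sugar supply, none had ages that did not overlap, where 9.74% of all genes were higher and 5.41% lower. Without 3 m replicate 2, 1 was higher and 6 lower of 28, where 14.9% and 11.4% of all genes were. The median log2 fold change was 0.035, or -0.13 without 3 m replicate 2. *Ugp2*, which makes UDP-glucose, had the smallest unadjusted p, with a log2 fold change of -0.70 (SE 0.30, adjusted p = 0.828), or -0.42 without 3 m replicate 2. Of 14 tested core 1 and other O-glycan, sialyl and GalNAc transferases outside the 10 families, only *B4galnt1*, which makes gangliosides from GM3, had ages that did not overlap. It was at 109.2, 68.8 and 93.6 CPM at 3 m and at 122, 158 and 123 CPM at 24 m. It was higher in every 24 m library, as were 9.74% of all genes. Its log2 fold change was 0.57 (SE 0.26, adjusted p = 0.828), or 0.41 without 3 m replicate 2. *C1galt1*, the core 1 synthase that follows the Galnt enzymes, was at 130, 463 and 125 CPM at 3 m and at 108, 108 and 127 CPM at 24 m, with 3 m replicate 2 far above the rest.

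Of 25 tested heparan and chondroitin chain enzymes, 3 were at an unadjusted p under 0.05 and higher, each without overlap, and none was lower at that p, where 3.56% and 2.3% of all genes were. These were *Hs3st3b1*, *Hs3st3a1* and *Hs6st1*, all sulfotransferases of heparan sulfate. *Hs3st3b1* was at 12.6, 7.34 and 10.4 CPM at 3 m and at 16.7, 23.8 and 22.3 CPM at 24 m, *Hs3st3a1* at 5.20, 1.60 and 5.10 CPM and at 12.9, 8.92 and 9.70 CPM. *Hs6st1* was at 25.98, 12.4 and 41.7 CPM and at 58.4, 56.6 and 44.4 CPM. Their log2 fold changes were 1.05 (SE 0.33, adjusted p = 0.701), 1.40 (SE 0.54, adjusted p = 0.828) and 0.99 (SE 0.41, adjusted p = 0.828), and 0.87, 1.03 and 0.65 without 3 m replicate 2. *Csgalnact1*, which starts and extends chondroitin chains, was the only gene of the list that was lower without overlap, at 0.413, 2.32 and 0.696 CPM at 3 m and at 0.0675, 0 and 0.208 CPM at 24 m. Its log2 fold change was -3.56 (SE 1.71, unadjusted p = 0.0692 by edgeR). The median of the list was -0.041. Of 20 sialidases and lysosomal glycan hydrolases, none was at an unadjusted p under 0.05. The smallest was that of *Ids*, with a log2 fold change of -1.33 (SE 0.59, unadjusted p = 0.0527 by edgeR), or -0.16 without 3 m replicate 2. *Nagpa*, which exposes the mannose 6-phosphate tag, was higher without overlap, and *Hexa* and *Gusb*, lysosomal hydrolases, were lower without overlap, at 9.74% and 5.41% over all genes.

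Proteins that carry these chains gave the only calls among the pathway lists. Of 11 tested mucins and mucin-like glycoproteins, DESeq2 called 3 higher at 24 m, *Muc5ac*, *Muc5b* and *Selplg*, and edgeR called 2 without 3 m replicate 2, where they called 1.63% and 0.506% of all genes higher. *Muc5b* had a log2 fold change of 4.68 (SE 1.03, adjusted p = 0.336 by edgeR and 3.0e-05 by DESeq2). *Muc5ac*, the other secreted airway mucin, without a count at 3 m, was at 1.35, 4.63 and 2.14 CPM at 24 m. *Selplg*, a ligand of selectins on leukocytes, had none at 3 m either and was at 1.05, 8.62 and 0.595 CPM at 24 m, and *Ptprc* moved with it. *Muc4*, a membrane mucin, was at 38.9, 52.8 and 81.4 CPM at 3 m and at 101.4, 124.4 and 84.7 CPM at 24 m, higher in every 24 m library with a log2 fold change of 0.84 (SE 0.32, adjusted p = 0.828), or 0.78 without 3 m replicate 2. *Muc5ac* and *Muc5b* are themselves on the list of airway secretory markers, and the part of such cells in their values was not tested.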

How the data were processed

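AT2 cell mRNA libraries (ABclonal kit, paired-end reads on a NovaSeq instrument) were mapped and counted by the authors. Their processing notes list HISAT2, featureCounts, DESeq2 and build GRCm39. Versions, annotation release, strand setting and treatment of reads shared between genes are not given in the sources used here. The deposited table holds whole-number counts per gene, with no normalization, and FPKM values that the authors computed from them, with a gene length that equals the summed exon length of GENCODE vM21 for 61 of 62 members.

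The versions used here were 4.3.3 of R, 4.0.16 of edgeR, 3.58.1 of limma and 1.42.0 of DESeq2. The low-count filter of edgeR (filterByExpr) kept 14899 of 24224 genes and removed 9325. TMM factors scaled the libraries. Ages were compared over all 6 libraries in edgeR (quasi-likelihood, without a replicate block), and DESeq2, which the processing notes list without a design, was run as an alternative. The Benjamini-Hochberg adjustment ran over all genes kept. Standard errors were taken from the log2 fold change and its F statistic, and intervals are 95%. CPM is on the TMM-scaled total. FPKM served for levels between genes and for the sums of each family, which were also computed on the TMM-scaled totals, a step chosen after seeing the data. Of the 62 members, 53 were tested and 9 were too low (*B3galt2*, *B3gnt7*, *Chst2*, *Chst3*, *Chst11*, *Fut1*, *Galnt6*, *Gcnt1* and *Gcnt4*). A floor of 3 counts over an age equals 0.0338 CPM at 3 m. Floors and counting intervals cover counting error only.

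Named with full values were members with a mean of 20 CPM or more, members called by edgeR or DESeq2, the 10 smallest unadjusted p and the highest FPKM of each family. From each pathway list, genes among the 4 with the smallest p were named, some without values per library. Other members were given by range, and some further members, among them *Galnt15*, *B3gnt6*, *Mgat3*, *B4galt7* and those with no count at 3 m, were given per library after their values were seen. The members and the 7 pathway and 12 marker lists were chosen with earlier results of these data known. As alternatives, the counts were fitted with DESeq2 or limma-voom, with RLE or upper-quartile factors, with no filter or a minimum of 1 CPM in every library, with a replicate block and with single libraries left out, and members were counted by adjusted p alone or from 300 counts up. DESeq2 without 3 m replicate 2, and edgeR without it and without a filter, were chosen after seeing the data. On simulated counts of 14899 genes for this comparison, edgeR recovered 50% of genes changed 4-fold and 72% of those changed 16-fold with 0 unchanged genes called. DESeq2 recovered 58% and 75% with 33, and limma-voom 39% and 57% with 0. The simulated counts held no library that stood apart as 3 m replicate 2 did, so these shares need not hold for the real counts.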

Additional observations from a re-analysis of the deposited data

How the results depend on the processing

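No alternative changed the direction of *B3gnt3*, *B4galt3*, *Fut8*, *Galnt3*, *St3gal1*, *St3gal4* or *St3gal5*, with log2 fold changes over single libraries left out of 2.41 to 3.54, 0.32 to 0.84, -0.52 to -0.30, -0.66 to -0.39, 0.32 to 0.63, 0.75 to 1.43 and -0.49 to -0.29. These genes were picked because their ages did not overlap. Leaving out a single library can then hardly turn the direction, so this outcome was largely fixed by the choice. Over all genes, 0 were called higher by edgeR, 286 by DESeq2, 179 with no filter, 1 with the stricter filter, 0 to 82 with a library left out, 441 by DESeq2 without 3 m replicate 2 and 381 with neither filter nor that library. Called lower were 28 by DESeq2, 28 with no filter, 0 to 3 with a library left out, and 18 and 28 under the last 2 settings. Members called higher were 3 under the first of these and 2 under the second, among them *B3gnt3* (log2 fold change 2.41 in both) and *St6galnac3* (2.24 and 2.25).

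Members higher without overlap numbered 7 among all 62 (DESeq2 or no filter). Of these, 3 were untested, *B3gnt7*, *Chst11* and *Galnt6*, with 7 counts or fewer at 3 m. Those 3 reached the count minimum only through the 24 m libraries. Members higher without overlap numbered 6 to 14 with a library left out and 13 under both settings without 3 m replicate 2. Members lower without overlap numbered 4 to 7 with a library left out and 7 under those settings. Of all genes tested, 9.74% were higher and 5.41% lower without overlap in all libraries, and 14.9% and 11.4% without 3 m replicate 2. The shares of all genes with another library left out, or over the unfiltered table, are not given, so those counts are not read against the table. With fewer libraries, fewer values have to be ordered, so such counts grow by construction. The median log2 fold change of the members was -0.17 with the stricter filter, -0.033 to 0.097 with a library left out, 0.10 by DESeq2 and 0.11 with no filter without 3 m replicate 2. The median log2 ratio of 24 m to 3 m was -0.034 in CPM and 0.064 in FPKM.

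The direction turned for some members, and no cause was tested beyond the library left out. By DESeq2 and by edgeR with no filter, both without 3 m replicate 2, the log2 fold change was 0.27 and 0.28 for *B4galt1*, 0.10 and 0.12 for *Galnt1*, 0.46 and 0.48 for *Galnt13*, 0.038 and 0.056 for *Galnt4*, 0.10 and 0.12 for *Mgat2*, -0.062 and -0.051 for *St3gal3* and -0.30 and -0.28 for *St6galnac2*. *Fut4* was at -0.011 by DESeq2, -0.012 with its size factors and -0.022 with upper-quartile factors, *St3gal6* at -0.0050 with the latter, and *Mgat1* at 0.013 by limma-voom. With a library left out the ranges were -0.37 to 0.28 for *B4galt1*, -0.38 to 0.081 for *Chst12*, -0.15 to 0.29 for *Fut4*, -0.53 to 0.11 for *Galnt1*, -0.89 to 0.47 for *Galnt13*, -0.44 to 0.033 for *Galnt18*, -0.95 to 0.048 for *Galnt4*, -0.46 to 1.87 for *Gcnt2*, -0.20 to 0.21 for *Mgat1*, -0.46 to 0.11 for *Mgat2*, -0.46 to 0.20 for *Mgat4b*, -0.057 to 0.32 for *St3gal3*, -0.038 to 0.094 for *St3gal6*, -0.29 to 0.45 for *St6galnac2* and -0.13 to 0.059 for *St6galnac4*. Of the alternatives for the 30 named members, 242 kept direction and side of the threshold, 20 reversed and 4 became stronger. With a library left out, 157 kept both and 23 reversed. Few members were called under any setting, so the side of the threshold could seldom change.

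Replicate numbers did not pair the libraries, since deviations from the age means correlated at 0.010, -0.042 and -0.077 for the same number. With the number as a replicate block, edgeR called 0 genes, the median log2 fold change of the members was 0.013 and *Mgat1* turned to 0.013, while the median of all genes moved from 0.052 to 0.13, as it did under limma-voom (0.13). Of the members, 13 had a mean under 1 CPM. The 95% interval lay within 1 log2 unit for 17 of 53 members, and for 27 of 60 without 3 m replicate 2.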
